A study of Mus musculus with 6 samples.

Results

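Interferon beta and 8 interferon regulatory factors (Ifnb1, Irf1, Irf2, Irf3, Irf4, Irf5, Irf7, Irf8 and Irf9) were followed in LPS-stimulated mouse macrophages that had first been given a hydroxyestrogen or a control. The 9 genes were taken by symbol from a table of 24016 genes, and all 9 were found as 1 entry each. The macrophages came from bone marrow (female C57BL/6N mice, 8 weeks of age) cultured in 20 ng/mL M-CSF, the growth factor that drives marrow cells to macrophages. They were plated on day 7, held for 1 h with an estrogen or the vehicle ethanol, and stimulated for 6 h with 100 ng/mL LPS, a lipid of the bacterial outer membrane that TLR4 recognises. The hydroxyestrogen group held 3 catechol estrogens with 1 library each: 2-hydroxyestradiol (2OHE2, replicate 1), 4-hydroxyestrone (4OHE1, replicate 2) and 2-hydroxyestrone (2OHE1, replicate 3). The control group held 3 libraries: ethanol alone (EtOH, replicate 1), estradiol (E2, replicate 2) and a compound that the labels call 16Epi and count among the estrogens (replicate 3). The final dose of each estrogen was 1 µM by the stated stock and dilution. All 6 cultures received LPS, so the values say nothing of cells at rest. Each compound had 1 library, and nothing in the labels ties a library to its own animal or culture, so p-values measure only the spread between these libraries, which may be technical. Within a group, that spread also holds any difference between its compounds.

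Interferon beta is the antiviral cytokine that macrophages release soon after TLR4 senses LPS. TLR4 signals through the adaptor TRIF to the kinase TBK1, which phosphorylates IRF3, and IRF3 together with NF-kB and ATF2/c-Jun switches on Ifnb1. Secreted interferon beta then acts back on the same cells through its receptor, JAK kinases and a STAT complex that contains IRF9, which induces interferon-stimulated genes, IRF7 and IRF1 among them. IRF5 and IRF8 act mainly on inflammatory cytokine genes in macrophages, IRF2 competes with IRF1 for the same DNA element, and IRF4 is known from alternatively activated macrophages and lymphocytes.

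The DNA just upstream of Ifnb1 is shown because it carries the elements that IRF proteins and NF-kB read, and that of Irf2 because it was the only other gene of the 9 with a match to the same motifs. RefSeq start-site windows in the build GRCm38.p6, which is not the build of the expression files, were available for 9 of 9 genes (12 windows of 300 bases). They were searched on both strands for an IRF core (AANNGAAA, in 23.9% of all 32851 windows), a tandem interferon response element (GAAA and GAAA with any 2 bases between, in 3.44%, which can overlap IRF cores) and an NF-kB element (GGG and TTCC with any 3 bases between, in 5.56%). Capitals mark the matches in the 250 bases before the start, written 5′ to 3′ on the gene's strand. The Ifnb1 stretch lies at chr4:88522795-88523044 on the minus strand and the Irf2 stretch at chr8:46739495-46739744 on the plus strand.
Ifnb1: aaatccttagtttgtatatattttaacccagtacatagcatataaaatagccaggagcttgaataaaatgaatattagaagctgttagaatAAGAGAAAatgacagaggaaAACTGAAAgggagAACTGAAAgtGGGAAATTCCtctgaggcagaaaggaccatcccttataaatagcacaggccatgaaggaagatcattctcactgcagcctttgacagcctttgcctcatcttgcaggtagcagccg
Irf2: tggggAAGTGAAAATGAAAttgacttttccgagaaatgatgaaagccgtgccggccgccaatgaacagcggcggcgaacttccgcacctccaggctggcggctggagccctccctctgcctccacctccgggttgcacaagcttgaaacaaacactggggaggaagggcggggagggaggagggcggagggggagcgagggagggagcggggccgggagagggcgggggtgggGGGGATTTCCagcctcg
Upstream of Ifnb1, 3 IRF cores began at positions -159, -139 and -126 from the start, followed by an NF-kB element at -116, so that all 4 matches lay close together. Upstream of Irf2, 2 IRF cores at -245 and -239 shared a tandem element at -241, and an NF-kB element stood apart at -17. The windows of the other 7 genes had no match to these patterns. This says nothing about binding outside the windows, or inside them at variants that the patterns miss.

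The 6 libraries held 16424057 to 17326353 reads in genes (hydroxyestrogens) and 14734225 to 16059673 (controls). On the first principal component, which took 30.6% of the variance, the 4OHE1 library stood at 50.5 while the other 5 lay between -19.4 and -1.51; where leaving it out changed a group call, a sign or a value by much, the value without it is given beside the result. Macrophage markers summed to 7180 to 8430 RPKM with hydroxyestrogens and 8010 to 8430 RPKM in controls, with Emr1 and Csf1r high in all 6 libraries. Of other cell types, B cell markers summed to at most 0.177 and 0.197 RPKM and T and NK cell markers to at most 0.573 and 0.381 RPKM in the hydroxyestrogen and control groups. Of conventional dendritic cell markers, Zbtb46 was at most 0.14 RPKM in any library, and Xcr1 was at 1.93 to 2.41 RPKM with hydroxyestrogens and 2.02 to 2.96 RPKM in controls. Of plasmacytoid dendritic cell markers, Siglech was listed at 0 in 5 of the 6 libraries, and Tcf4 was at 11.5 to 17.8 and 13.2 to 17.4 RPKM in the hydroxyestrogen and control groups. Neutrophil markers summed to 28.8 to 35.9 RPKM with hydroxyestrogens and 31.5 to 46.2 RPKM in controls, and fibroblast markers to 13.3 to 20.1 and 16.7 to 20.1 RPKM. Most of the neutrophil sum was S100a8. In limma's test, 1 neutrophil marker was lower with 2OHE2 (S100a9) and 1 with 2OHE1 (Camp, -3.13, adjusted p = 0.0293). Camp was at 0.182 RPKM with 2OHE1 and S100a9 at 0.102 RPKM with 2OHE2. Both are near the pseudocount of 0.1, so the sizes of these differences depend on it. In these bulk samples, fewer expressing cells and less RNA per cell cannot be told apart.

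Ifnb1, at 88167929 to 88168698 on the minus strand of chromosome 4 (mm9), was at 1.59 RPKM with 2OHE2, 9.57 with 4OHE1 and 7.41 with 2OHE1, against 15.8 with EtOH, 15.98 with E2 and 20.9 with 16Epi. All 3 hydroxyestrogen libraries lay below all 3 controls, and the 2OHE2 library stood far below the other two. These levels rest on 23, 145 and 105 reads in the hydroxyestrogen libraries and on 221, 209 and 267 reads in the controls. By counting error alone (exact Poisson 95% intervals), the level was 1.01 to 2.38 RPKM with 2OHE2, and 8.08 to 11.3 RPKM with 4OHE1 overlapped 6.06 to 8.97 RPKM with 2OHE1. The hydroxyestrogen libraries stood at 9.05%, 54.5% and 42.2% of the control mean in that order of compounds, and the control libraries at 90.1%, 91.0% and 119%.

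As a group, the hydroxyestrogens averaged 6.19 ± 4.13 RPKM of Ifnb1 and the controls 17.6 ± 2.89 RPKM (SD, n = 3 each). The difference on the log2(RPKM + 0.1) scale was -1.82 ± 0.53 (SE; 95% interval -3.01 to -0.62), and it did not pass limma's test after Benjamini-Hochberg adjustment over 11991 tested genes (adjusted p = 0.165). Without the 2OHE2 library, the difference was smaller, at -1.04, and passed (adjusted p = 0.0318). Without the 4OHE1 library it was -2.30 (adjusted p = 0.0963). The same contrast passed with limma-voom on the recovered reads (-1.82, adjusted p = 0.014) and on the authors' deposited log2 values (-0.32 on their compressed scale, adjusted p = 0.00213). An exact permutation test of 3 against 3 gave p = 0.1, the smallest this design allows.

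**Figure D1:**
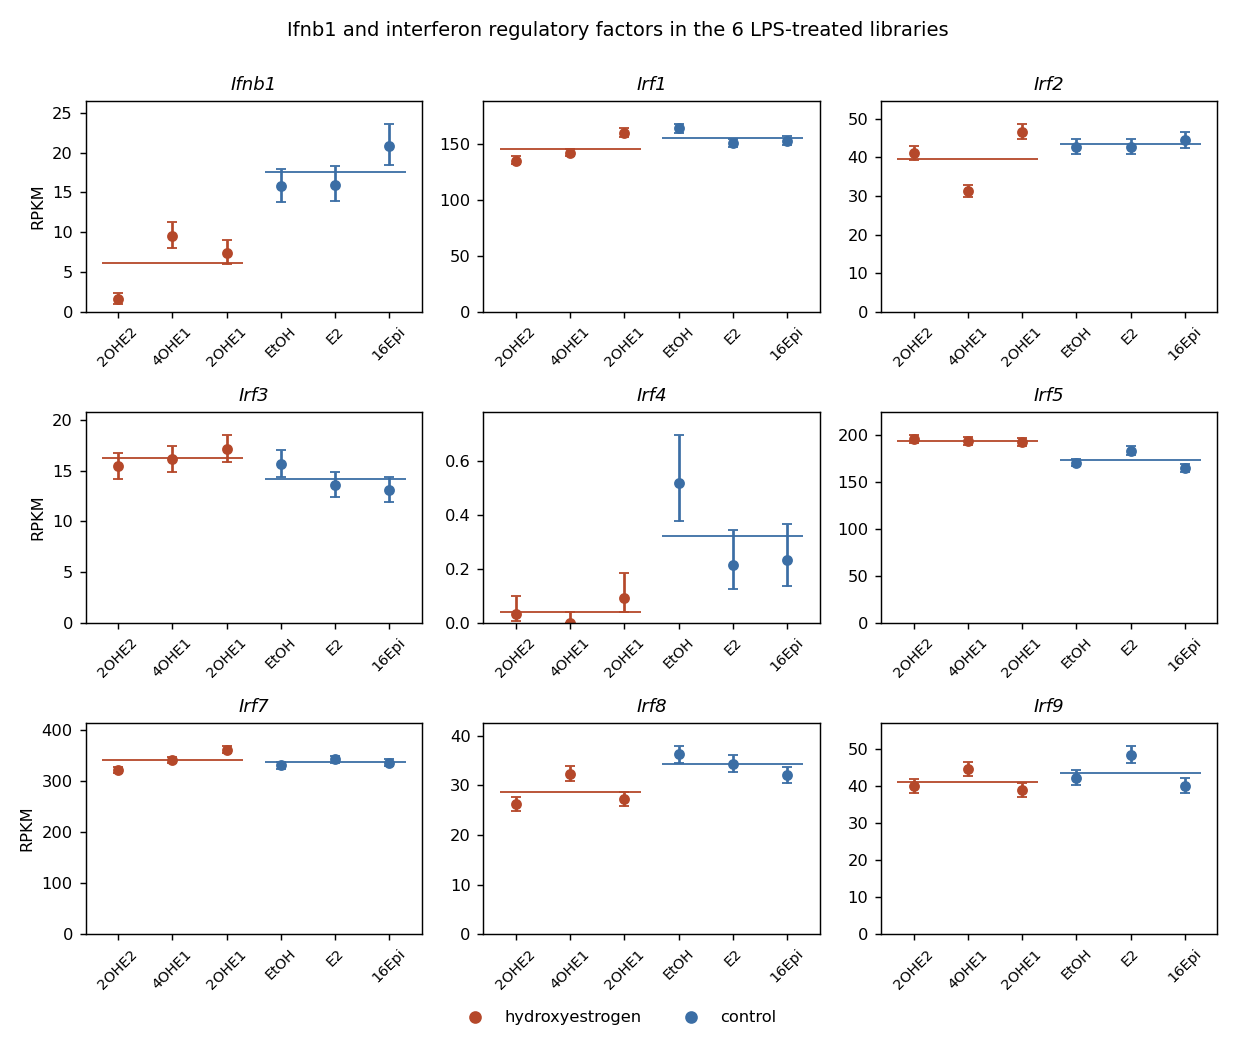
Level of each of the 9 genes in RPKM (y axes from 0) in the 3 hydroxyestrogen and 3 control libraries, with exact Poisson 95% intervals from the read counts as bars and group means as lines. Ifnb1 spans 1.59 to 20.9 RPKM with all hydroxyestrogens below all controls, whereas Irf7 stays between 322 and 362 RPKM.

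Compared separately with the 3 controls, Ifnb1 under 2OHE2 fell by 3.37 on the log2 scale (SE 0.21, 95% interval -3.87 to -2.88), 10.4-fold lower, with an adjusted p of 0.00191 in limma's test. In that comparison 1 of the 9 genes was called, Ifnb1 itself, and 0.609% of all tested genes were. Ifnb1 stood 8th of 11991 genes by p with 2OHE2. The neutrophil marker S100a9 was also lower in that library (-4.36, adjusted p = 0.0418 in limma's test). It was at 0.102 RPKM with 2OHE2 against 6.56, 4.86 and 2.08 RPKM with EtOH, E2 and 16Epi. The 2OHE2 value is near the pseudocount of 0.1, so the size of the S100a9 difference depends on the pseudocount. The other tested neutrophil markers shared no direction with 2OHE2 and were not called: S100a8 differed by 0.03, Ngp by 0.37 and Camp by -0.53. The part of these markers in the Ifnb1 result was not tested. With 4OHE1 the Ifnb1 difference was -0.86 (95% interval -1.35 to -0.37), which did not pass (adjusted p = 0.075), and with 2OHE1 it was -1.22 (-1.71 to -0.73), which did not pass either (adjusted p = 0.0714). With 2OHE1, 0 of the 9 genes and 0.542% of all tested genes were called. These 3 comparisons share the same controls, and a lone library was assumed to vary like the controls. The call for 2OHE2 was lost without the filter on low values (adjusted p = 0.0537) and without the variance trend (adjusted p = 0.216). The 2OHE1 difference passed when the EtOH library was left out (-1.29, adjusted p = 0.0347).

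From low to high, Ifnb1 stood in the order 2OHE2, 2OHE1, 4OHE1, EtOH, E2 and 16Epi. Differences between compounds at the matched dose and time were tested in 4 pairs, with p adjusted over all genes and the 4 pairs together. 2OHE1 and 4OHE1, both estrone derivatives that differ in the ring position of the added hydroxyl, differed in Ifnb1 by -0.37 (95% interval -0.97 to 0.24; adjusted p = 0.621), so that their order is not settled. 2OHE1 and 2OHE2, which share the hydroxyl position and differ in a ketone (estrone) or hydroxyl (estradiol) on the D ring, differed by 2.15 (1.55 to 2.75), with higher Ifnb1 under 2OHE1. This pair did not pass the limma test over 4 pairs (adjusted p = 0.0984). It passed without the EtOH library (adjusted p = 0.0221), but there p was adjusted over the 3 pairs of hydroxyestrogens only, so the 2 values are not like for like.

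2OHE2 against 4OHE1, a pair that differs at both places, gave -2.52 for Ifnb1 (-3.12 to -1.92; adjusted p = 0.0562 in limma's test). That value passed when EtOH (adjusted p = 0.00929) or 16Epi (0.0382) was left out of the fit, and did not without E2 (0.141). Those fits without a control were adjusted over the 3 pairs of hydroxyestrogens only. Over all 4 pairs, it did not pass with limma-voom (0.0963) or with a pseudocount of 1 (0.141). 2OHE2 against E2, which differ by the catechol hydroxyl alone, gave -3.25 (-3.97 to -2.53), and Ifnb1 passed (adjusted p = 0.0251 in limma's test), as 1 of the 9 genes in a pair where 0.0667% of tested genes were called. It did not pass with limma-voom (-3.30, adjusted p = 0.0802) or with a pseudocount of 1 (-2.71, adjusted p = 0.0531). No other gene of the 9 passed in any of the 4 pairs; over the 3 pairs of hydroxyestrogens together, 0.0445% of all gene tests did.

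**Figure D2:**
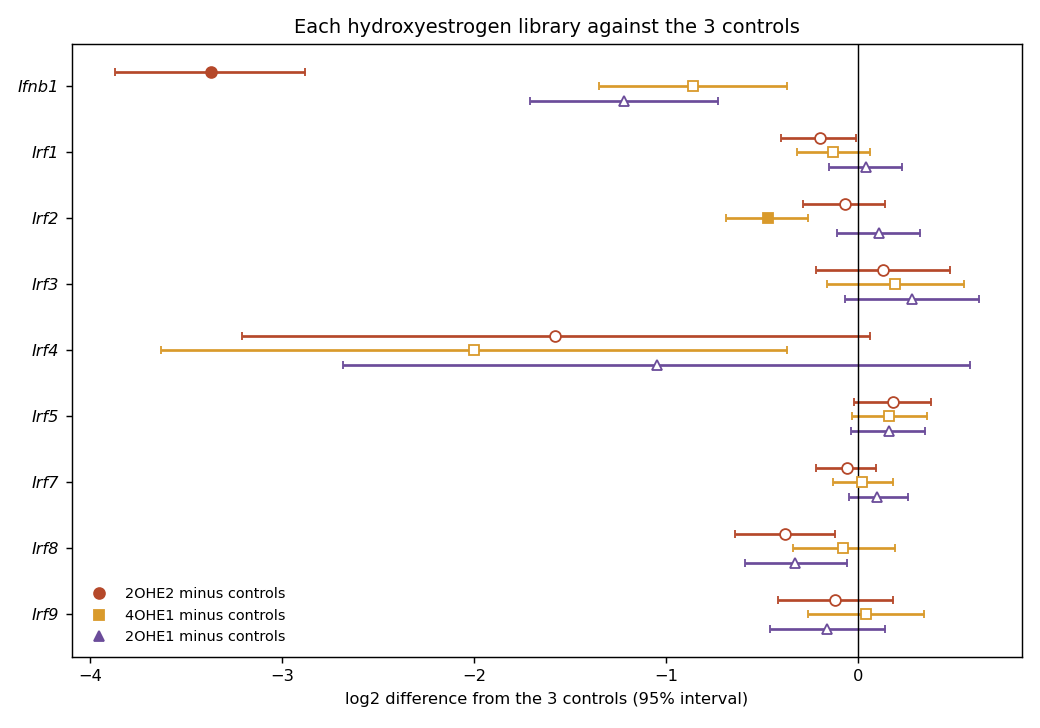
Log2 difference (x axis, on log2(RPKM + 0.1)) of each hydroxyestrogen library from the 3 controls for the 9 genes, with limma's 95% intervals; filled symbols passed the adjusted threshold of 0.05. Ifnb1 under 2OHE2 (-3.37) and Irf2 under 4OHE1 (-0.47) are the filled symbols.

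Over all 9 genes, limma called 0 in the comparison of hydroxyestrogens with controls, where 225 of 11991 genes (1.88%) were called. With limma-voom, 1 was called (Ifnb1). Irf4 reached the test through its control reads alone, so that its lower level with hydroxyestrogens was built in, and it is set aside in these counts. Of the other 8 genes, 3 (Ifnb1, Irf5 and Irf8) had an unadjusted p under 0.05, as did 13.5% of all genes, and the groups did not overlap for 2 (Ifnb1 and Irf5), as for 20.0% of all tested genes. The median difference of the 9 genes was -0.10, and that of all tested genes -0.02. Without the 4OHE1 library, 0 of the 9 and 163 genes in all were called.

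Irf3 and Irf7 are the factors closest to the Ifnb1 gene, Irf3 being made constitutively and activated by phosphorylation, and Irf7 being induced by interferon. Irf3 (chromosome 7, 52253018 to 52258218, mm9) was at 15.4, 16.1 and 17.2 RPKM with 2OHE2, 4OHE1 and 2OHE1, against 15.7, 13.6 and 13.1 RPKM with EtOH, E2 and 16Epi. The 3 hydroxyestrogen values overlapped only the EtOH control, and the difference of 0.20 did not pass (adjusted p = 0.493). Irf7 (chromosome 7, 148449082 to 148452323) was at 322, 341 and 362 RPKM with the hydroxyestrogens and at 330, 343 and 336 RPKM in the controls, so the controls lay within the range of the hydroxyestrogens. Its difference was 0.02 with a 95% interval of -0.12 to 0.16 (adjusted p = 0.931), and its highest library was 1.12 times its lowest, against 13.1 times for Ifnb1. The Irf7 difference turned to -0.02 without the 2OHE1 library.

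The 11 genes of the TLR4 to IRF3 arm, from the receptor to the kinases, had 0 called higher and 0 called lower in limma's test, 1 at an unadjusted p under 0.05, and 0 with limma-voom. Their median difference was -0.13. Over all tested genes, 13.5% had an unadjusted p under 0.05. Ikbke, a TBK1-related kinase, had the smallest p, at 70.6 ± 2.18 RPKM with hydroxyestrogens and 79.2 ± 2.77 RPKM in controls (SD, n = 3 each; adjusted p = 0.338). Tlr4, the LPS receptor itself, was at 16.1 ± 0.332 and 13.8 ± 0.698 RPKM in the hydroxyestrogen and control groups (adjusted p = 0.397). Peli1 and Tank, a ubiquitin ligase and a TBK1-binding adaptor, had differences of -0.20 and -0.19 that did not pass (adjusted p = 0.479 and 0.513).

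The 7 partners at the Ifnb1 enhancer, which are the NF-kB, ATF2/c-Jun and coactivator genes, also had 0 called in either direction by limma over the groups, with 1 at an unadjusted p under 0.05 and 1 by limma-voom. Their median was -0.09. Over all 11991 tested genes, 13.5% had an unadjusted p under 0.05, and limma-voom called 433. Nfkb1, the p50 precursor of NF-kB, was at 144, 127 and 148 RPKM with 2OHE2, 4OHE1 and 2OHE1, against 170, 166 and 169 RPKM with EtOH, E2 and 16Epi. All hydroxyestrogen libraries lay below the controls. The group difference was -0.27 (adjusted p = 0.13), was -0.20 without 4OHE1 (adjusted p = 0.196) and passed with limma-voom (adjusted p = 0.0309); under 4OHE1 alone Nfkb1 fell by 0.41 (adjusted p = 0.0345), in a comparison that called 3.69% of all genes. Jun, Atf2 and Ep300 had differences of 0.25, -0.35 and -0.28, with adjusted p of 0.39, 0.39 and 0.433. The 10 cytosolic nucleic acid sensors, the other entry to Ifnb1, had 0 called by limma, 0 at an unadjusted p under 0.05 and 0 by limma-voom, with a median of -0.03 (Ddx58, which encodes RIG-I, -0.17, adjusted p = 0.491).

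Downstream of the cytokine, Irf9, the DNA-binding subunit of the STAT complex, was at 39.9, 44.6 and 38.7 RPKM with 2OHE2, 4OHE1 and 2OHE1, against 42.1, 48.4 and 40.0 RPKM with EtOH, E2 and 16Epi. The groups overlapped and the difference of -0.08 did not pass (95% interval -0.30 to 0.14; adjusted p = 0.778); without 4OHE1 it was -0.14 (adjusted p = 0.605). Irf9 lies on chromosome 14 at 56223416 to 56228867 (mm9).

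Of 10 genes of the interferon receptor and JAK-STAT chain, limma called 0 higher and 1 lower, and limma-voom called 2, where they called 1.88% and 433 of all 11991 tested genes; the median was -0.06. The gene that fell was Socs1, the suppressor that interferon signalling induces against its own kinases. Socs1 was at 81.7, 90.7 and 110 RPKM with 2OHE2, 4OHE1 and 2OHE1, against 142, 146 and 144 RPKM with EtOH, E2 and 16Epi. The groups did not overlap, and the difference was -0.62 ± 0.10 (SE; adjusted p = 0.0156). Socs1 also passed with 2OHE2 (-0.82, adjusted p = 0.0109) and with 4OHE1 (-0.67, adjusted p = 0.0114), and with 2OHE1 it was at -0.38 (adjusted p = 0.0936). Leaving out 1 library ended the group call for 4OHE1 (adjusted p = 0.0541), EtOH (0.0609), E2 (0.0802) and 16Epi (0.0818), with differences of -0.63 to -0.60.

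The receptor subunit Ifnar1 was at 36.7, 33.3 and 36.6 RPKM with 2OHE2, 4OHE1 and 2OHE1, against 45.2, 40.1 and 44.8 RPKM with EtOH, E2 and 16Epi. The groups did not overlap, but the difference of -0.28 did not pass (adjusted p = 0.183); with limma-voom it was -0.29 and passed (adjusted p = 0.0475). Stat3, a signal transducer shared with interleukin receptors, differed by -0.24 (adjusted p = 0.246), and Stat2, a partner of IRF9, by -0.11 (adjusted p = 0.647).

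**Figure D3:**
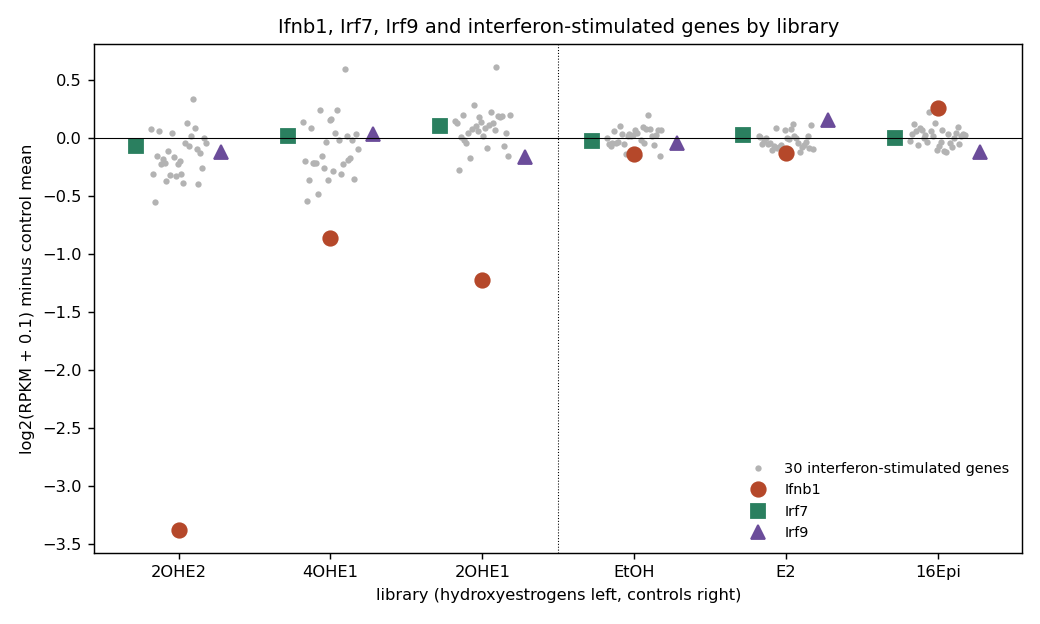
Difference of each library (x axis) from the control mean on log2(RPKM + 0.1) (y axis) for Ifnb1, Irf7, Irf9 and 30 interferon-stimulated genes (grey points, spread sideways for legibility). With 2OHE2, Ifnb1 lies at -3.37 while the interferon-stimulated genes lie between -0.55 and 0.34.

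The 30 interferon-stimulated genes had 1 called higher and 1 called lower by limma, and 3 called by limma-voom, with a median difference of -0.05. Over all 11991 tested genes, limma called 1.88% and limma-voom 433 genes, and the median was -0.02. By compound their medians were -0.16 with 2OHE2, -0.16 with 4OHE1 and 0.10 with 2OHE1. Those of all tested genes were 0.04, -0.06 and -0.02 in the same order. In the 2OHE2 library, where Ifnb1 stood at -3.37 log2 units from the control mean, the 30 genes ranged from -0.55 (Cxcl10) to 0.34 (Oasl1). In the 4OHE1 library they ranged from -0.55 to 0.59 and in the 2OHE1 library from -0.28 to 0.61, with the same genes at the ends. Over all 6 libraries Ifnb1 spanned 3.64 log2 units, and the widest span among the 30 genes was 0.73, for Oasl1. Times of LPS other than 6 h were not analysed here.

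Oasl1, which in mice encodes a protein that holds back translation of Irf7 mRNA, rose. It was at 376, 447 and 453 RPKM with 2OHE2, 4OHE1 and 2OHE1, against 340, 273 and 280 RPKM with EtOH, E2 and 16Epi. The groups did not overlap, and the difference was 0.52 (SE 0.10; adjusted p = 0.039). Cxcl10, which encodes a T cell attractant, fell, with 3000, 3000 and 3620 RPKM under the hydroxyestrogens and 4190, 4220 and 4750 RPKM in the controls. Its difference was -0.46 (SE 0.09; adjusted p = 0.0404), and the groups did not overlap.

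Both calls lay near the threshold. For Oasl1 the adjusted p was 0.113 without 4OHE1, 0.112 without 2OHE1, 0.163 without E2, 0.191 without 16Epi and 0.0706 with median-ratio scaling, and the difference was 0.32 when EtOH alone served as control (adjusted p = 1). For Cxcl10 it was 0.0941 without 2OHE2, 0.105 without 4OHE1, 0.105 without EtOH, 0.13 without E2, 0.199 without 16Epi and 0.109 with median-ratio scaling. Gbp5, a guanylate-binding protein, was at 185 ± 20.2 RPKM with hydroxyestrogens and 234 ± 9.5 RPKM in controls (SD, n = 3 each; adjusted p = 0.0898), passed in the group test without 2OHE1 (-0.42, adjusted p = 0.03) and with 4OHE1 alone (-0.48, adjusted p = 0.0289). Bst2, which encodes the virus tether tetherin, differed by 0.12 (adjusted p = 0.398); it made up nearly all of the plasmacytoid dendritic cell marker sum, 385 to 406 RPKM with hydroxyestrogens and 362 to 370 RPKM in controls.

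Irf1 and Irf2 bind the same element, Irf1 as an activator induced by interferon and Irf2 mainly as a repressor. Irf1 (chromosome 11, 53583516 to 53590826, mm9) was at 135, 142 and 160 RPKM with 2OHE2, 4OHE1 and 2OHE1, against 164, 151 and 153 RPKM with EtOH, E2 and 16Epi. The 2OHE2 and 4OHE1 libraries were the lowest and 2OHE1 lay among the controls. Its group difference of -0.10 did not pass (95% interval -0.27 to 0.08; adjusted p = 0.644).

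Irf2 (chromosome 8, 47825099 to 47932812) was at 41.1, 31.2 and 46.6 RPKM with 2OHE2, 4OHE1 and 2OHE1, against 42.7, 42.7 and 44.5 RPKM with EtOH, E2 and 16Epi. The 4OHE1 library stood below the rest, and 2OHE1 was the highest of all. The group difference was -0.15 (adjusted p = 0.686) and turned to 0.02 without 4OHE1. With 4OHE1 against the controls, Irf2 fell by 0.47 (SE 0.09, 95% interval -0.69 to -0.26; adjusted p = 0.044), and it was the 1 gene of the 9 called there, in a comparison that called 3.69% of all genes. The call was lost with median-ratio scaling (-0.41, adjusted p = 0.0629) and without E2 (adjusted p = 0.118) or 16Epi (0.101). Irf2 differed by 0.58 between 2OHE1 and 4OHE1 (0.31 to 0.85), which did not pass over the 4 pairs (adjusted p = 0.218) but did with limma-voom (0.58, adjusted p = 0.0416). The ratio of Irf2 to Irf1 levels per length was 0.304, 0.219 and 0.291 in the hydroxyestrogen libraries and 0.260, 0.284 and 0.291 in the controls.

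Irf5 and Irf8 had differences of opposite sign between the groups, neither of which passed the test. Irf5 (chromosome 6, 29476625 to 29487320, mm9), a driver of inflammatory cytokine genes, was at 196, 194 and 193 RPKM with 2OHE2, 4OHE1 and 2OHE1, against 171, 183 and 165 RPKM with EtOH, E2 and 16Epi. Every hydroxyestrogen library lay above every control, with a difference of 0.17 (95% interval 0.02 to 0.31; adjusted p = 0.291). Irf8 (chromosome 8, 123260276 to 123280592), a lineage factor of macrophages and dendritic cells, was at 26.3, 32.4 and 27.2 RPKM under the hydroxyestrogens and 36.3, 34.4 and 32.1 RPKM in the controls. The 4OHE1 library overlapped the lowest control, and the difference was -0.26 (-0.49 to -0.03; adjusted p = 0.315), or -0.35 without 4OHE1 (adjusted p = 0.138). The ratio of Irf8 to Irf5 levels per length was 0.134, 0.167 and 0.141 with hydroxyestrogens and 0.212, 0.188 and 0.194 in controls. It did not overlap, but Irf5 alone already did not, and Irf8 differed the other way, so the ratio adds nothing separate. No test was made of it. The ratios of Irf2 to Irf1, Irf9 to Irf7 and Irf7 to Irf3 overlapped between the groups. Conventional dendritic cell markers, of cells that also express Irf8, summed to 12.3 to 12.9 RPKM with hydroxyestrogens and 13.2 to 16 RPKM in controls. Most of that sum was Itgax, which macrophages share, and most of the rest was Xcr1, at 1.93, 2.41 and 2.08 RPKM with 2OHE2, 4OHE1 and 2OHE1 and 2.96, 2.57 and 2.02 RPKM with EtOH, E2 and 16Epi. The remaining tested marker, Ccr7, went the other way, with a group difference of 0.48. It was at 0.054, 1.05 and 0.494 RPKM with 2OHE2, 4OHE1 and 2OHE1 and 0.39, 0.06 and 0.396 RPKM with EtOH, E2 and 16Epi. Cd209a was at 0 in all 6 libraries. Of the 3 tested markers 0 were called, and their part in the Irf8 difference was not tested.

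Of 15 genes linked to Irf1, Irf5 or Irf8 as targets, limma called 0 higher and 1 lower over the groups, and limma-voom called 3; the median was -0.14. Over all 11991 tested genes these tests called 1.88% and 433 genes, with a median of -0.02. Il12b, which encodes the p40 chain of interleukin-12, was at 86.3, 98.3 and 114 RPKM with 2OHE2, 4OHE1 and 2OHE1, against 186, 152 and 166 RPKM with EtOH, E2 and 16Epi. The groups did not overlap, and Il12b fell by 0.76 (SE 0.11; adjusted p = 0.00847); without 16Epi the difference was -0.77 and did not pass (adjusted p = 0.0544). It passed with 2OHE2 (-0.96, adjusted p = 0.0306) and with 4OHE1 (-0.77, adjusted p = 0.0257).

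Nos2, the inducible nitric oxide synthase, was at 108 ± 16.8 RPKM with hydroxyestrogens and 140 ± 5.14 RPKM in controls (SD, n = 3 each; adjusted p = 0.128), and passed with 4OHE1 (-0.57, adjusted p = 0.0207) and over the groups without 2OHE1 (-0.51, adjusted p = 0.0194); without 4OHE1 the group difference was -0.29 (adjusted p = 0.239). Il6, an inflammatory cytokine, was at 327 ± 60.6 and 429 ± 36.6 RPKM in the hydroxyestrogen and control groups (adjusted p = 0.199), and passed with 2OHE2 (-0.73, adjusted p = 0.0432). Il27, a cytokine subunit, differed by -0.25 (adjusted p = 0.276).

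**Figure D4:**
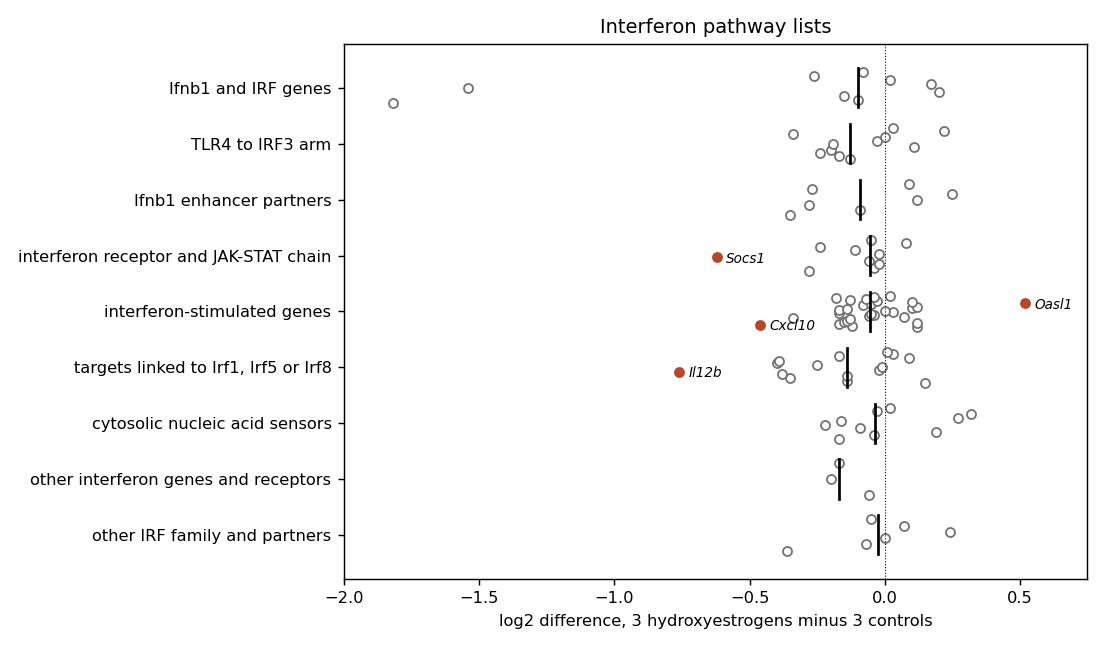
Log2 difference of hydroxyestrogens minus controls (x axis) for every tested gene of the 9 interferon genes and of 8 pathway lists; black bars are list medians and filled points passed the adjusted threshold of 0.05. Socs1 (-0.62), Il12b (-0.76), Cxcl10 (-0.46) and Oasl1 (0.52) are the filled points.

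Irf4 (chromosome 13, 30841127 to 30858796, mm9) was near the limit of detection. It had 3, 0 and 8 reads with 2OHE2, 4OHE1 and 2OHE1, against 44, 17 and 18 reads with EtOH, E2 and 16Epi, or 0.034, 0 and 0.093 RPKM against 0.517, 0.213 and 0.231 RPKM. The groups did not overlap, at 11 summed reads with hydroxyestrogens and 79 in controls, and the EtOH library held most of the control reads. A count of 0 with 4OHE1 allows up to 0.0325 RPKM by the limit of 3 reads; the two-sided Poisson interval that is plotted reaches 0.04 RPKM. Irf4 passed the filter on low values through the 3 controls alone, 0 of the hydroxyestrogen libraries reaching 10 reads, so a lower hydroxyestrogen mean was built into its being tested. Its fitted difference of -1.54 (adjusted p = 0.235) depends on the pseudocount and was -0.33 with 1 and -3.10 with 0.01. Markers of B cells, which also express Irf4, summed to 0 to 0.177 RPKM with the hydroxyestrogens and 0.177 to 0.197 RPKM in the controls, with Ms4a1, Cd79a and Pax5 at 0 in all 6 libraries; their part in the result was not tested.

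Of the 6 tested genes that are IRF partners or relatives, limma called 0 (0 at an unadjusted p under 0.05, 0 with limma-voom), with a median of -0.03. Spi1, the macrophage factor PU.1 that pairs with IRF4 and IRF8 on DNA, was at 648 ± 40.8 RPKM with hydroxyestrogens and 671 ± 29.7 RPKM in controls (SD, n = 3 each; adjusted p = 0.807). Irf2bp2, an IRF2-binding corepressor, differed by 0.24 (adjusted p = 0.47), and Batf, which pairs with IRF4 and IRF8 in lymphocytes and dendritic cells, by -0.36 (adjusted p = 0.501).

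Ifnb1 was the interferon gene that could be followed in these cells. Of 13 other interferon and receptor genes in the table, 9 (Ifna1, Ifna2, Ifna4, Ifna5, Ifnab, Ifne, Ifng, Ifnl2 and Ifnl3) had no read in any library. The interferon alpha genes are near-identical copies, so reads from them may be lost in counting. The receptor genes Ifngr2 and Il10rb had differences of -0.20 and -0.17 without overlap between the groups, which did not pass (adjusted p = 0.201 and 0.289), and Ifngr1 differed by -0.06 (adjusted p = 0.879). In this list limma called 0 of 3 tested genes, 2 had an unadjusted p under 0.05, and limma-voom called 0. Over all tested genes, 13.5% had an unadjusted p under 0.05 and 20.0% had no overlap between the groups.

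In RPKM, which is per transcript length, the order of levels over the 6 libraries was Irf7 (322 to 362), Irf5 (165 to 196), Irf1 (135 to 164), Irf9 (38.7 to 48.4), Irf2 (31.2 to 46.6), Irf8 (26.3 to 36.3), Irf3 (13.1 to 17.2), Ifnb1 (1.59 to 20.9) and Irf4 (0 to 0.517). Irf7, Irf5 and Irf1 were separate from each other and from those below in all 6 libraries. The ranges of Irf9 and Irf2 overlapped, as did those of Irf2 and Irf8, and those of Irf3 and Ifnb1. Ifnb1 was above Irf3 in 3 libraries and below it in 3. The 8 IRF genes summed to 775, 802 and 844 RPKM with hydroxyestrogens and to 803, 816 and 784 RPKM in controls, and Irf7 held 41.5% to 42.8% of that sum with hydroxyestrogens and 41.1% to 42.9% in controls.

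The 5 genes whose log2 levels were most like those of Ifnb1 over the 6 libraries were Mrrf (Pearson r = 0.973), Fbxo5 (0.973), Tagap1 (0.967), Col5a3 (0.959) and E230016M11Rik (0.946). The candidates were the 1416 genes that averaged 50 reads or more with a span of at least 1 log2 unit, of which 24 had r above 0.9. The 2OHE2 library was the lowest for each of the 5. The 5 were chosen for likeness to Ifnb1, itself far lowest with 2OHE2, so this largely follows from the choice. Over 6 libraries made and processed alike, these values are descriptions. Mrrf, for example, was at 1.56, 2.98 and 3.04 RPKM with 2OHE2, 4OHE1 and 2OHE1, against 3.77, 3.30 and 3.64 RPKM with EtOH, E2 and 16Epi.

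In the authors' deposited table, whose log2 fold change runs from controls over hydroxyestrogens, Ifnb1 had 1.46 (authors' adjusted p = 0.268). The authors' deposited table gave Irf8 0.23 (adjusted p = 0.325) and Irf5 -0.18 (adjusted p = 0.112), positive meaning higher in controls. For Irf4 it gave 2.93, with an unadjusted p of 0.00433 in the authors' test, below the 0.00978 of Irf5. The adjusted p listed for Irf4 is nonetheless above that of Irf5. It may mark a gene left out of the adjustment and is not read as a result. None of the 9 genes was at an adjusted p under 0.05 there. Of the 24505 genes listed, 2.42% were, a total that may include genes left out of the adjustment.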

How the data were processed

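RNA sequencing values of 6 libraries of LPS-stimulated mouse bone marrow macrophages were used. Reads were handled with STAR, HOMER, DESeq2 and edgeR on mm9, versions not given in the sources used here, per the submitters' processing notes. RPKM values per gene were made by the authors with HOMER over exons, per the file headers. A second deposited table of the authors holds log2 values and a log2 fold change, which is positive where controls are higher (594 of 594 calls checked), and the p-value and adjusted p-value that the authors obtained. Whether counting used strand is not stated, so antisense reads cannot be told apart; none of the 9 genes overlaps another gene in the table. Groups came from sample titles and column headers; the labels' treatment field, which states the reverse for all 6 samples, was set aside.

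Reads were recovered from RPKM, transcript length and library total: of the 1873 to 2607 low values in each library (under 20 reads, genes up to 6000 nt), 100% fell within 0.1 of a whole number. A minimum of 10 reads in 3 or more libraries left 11991 of 24016 genes, and these were compared with limma 3.58.1 (R 4.3.3) on log2(RPKM + 0.1) with a variance trend, two-sided, Benjamini-Hochberg over all tested genes, threshold 0.05, with 4 residual degrees of freedom for the groups and 2 for single compounds. 2OHE2 minus E2 came from a fit with 1 coefficient each for both, 1 for the other hydroxyestrogens and 1 for the other controls. The fits were tested on simulated reads with changes shared by all 3 hydroxyestrogens. Differences between compounds were not simulated. Intervals and limits on reads cover counting error only. The members and lists were chosen with earlier results of these data known. Named were the 9 genes, up to 4 genes of smallest p per list, and the 5 genes most like Ifnb1; marker genes, the other genes listed at 0 and the extremes of the interferon-stimulated list are named besides. Of 160 list entries, 4 were matched by an older symbol and 1 was not matched. The alternatives were limma-voom, median-ratio scaling, other pseudocounts and filters, no variance trend, the authors' log2 values, a replicate block, EtOH alone as control, and leaving out each library.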

Additional observations from a re-analysis of the deposited data

How the results depend on the processing

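Over the groups, 225 genes were called; the count was 433 with limma-voom, 94 without the filter, 12 without the variance trend, 483 on the authors' log2 values, 9 with EtOH alone as control and 64 to 191 when a library was left out. Of the 9 genes, 1 (Ifnb1) was called with limma-voom (-1.82), on the authors' log2 values (-0.32) and without 2OHE2 (-1.04), and 0 or 1 over the fits that left out a library; Ifnb1 ranged from -2.30 to -1.04 over those fits. With 2OHE2, 73 genes became 463 (limma-voom), 307 (no filter), 0 (no trend) and 14 to 180 (a control left out), and 1 gene of the 9 became 0 without the filter and without the trend, where Ifnb1 was still at -3.37. With 4OHE1, 442 became 1639, 266, 0 and 44 to 621 in the same order. There, 1 of the 9 became 2 with limma-voom, 0 with median-ratio scaling, no filter or no trend, and 0 to 1 with a control left out. The gene added with limma-voom was Irf4, which reached the test through its control reads alone, so its lower level was built in. With 2OHE1, 65 became 374, 245, 0 and 8 to 164, and 0 of the 9 became 1 without EtOH, with Ifnb1 at -1.29 (range -1.29 to -1.09 with a control left out). 2OHE2 minus 4OHE1 for Ifnb1 also passed with median-ratio scaling (-2.62) and a pseudocount of 0.01 (-2.58), and was -2.52 in all 3 fits without a control. 2OHE1 minus 2OHE2 stayed at 2.15 in those. 2OHE2 minus E2 did not pass with limma-voom (-3.30), a pseudocount of 1 (-2.71), no filter or no trend (both -3.25).

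Signs turned for values near 0: Irf2 over the groups without 4OHE1 (0.02, range -0.27 to 0.02 over the libraries left out), Irf7 without 2OHE1 (-0.02, range -0.02 to 0.06), Irf9 with 4OHE1 without 16Epi (-0.02, range -0.02 to 0.12), and, with median-ratio scaling, Irf5 in 2OHE2 minus 4OHE1 (-0.08) and in 2OHE1 minus 2OHE2 (0.03) and Irf9 in 2OHE1 minus 2OHE2 (0.01). The cause was not tested. The calls of Socs1, Oasl1, Cxcl10 and Il12b were also lost without the filter, without the trend and with EtOH alone as control. Between pairs of compounds, calls over all genes ranged from 0 to 460 over the alternatives. Irf4 could not be tested with a minimum of 1 RPKM. Same-numbered samples did not deviate together (correlations -0.04, 0.07 and 0.04), so the numbers were not taken to pair the samples; with a replicate block Ifnb1 was at -1.82 (adjusted p = 0.0803), 165 genes were called, and of the named group calls Oasl1 was lost (0.52, adjusted p = 0.0791). Depth limited Irf4, and with 1 library per compound no compound has a replicate.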
